A study of Mus musculus with 20 samples.

Results

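The genes described here are 10 complement components and receptors, taken by symbol from a table of 16810 genes: the C1q chains C1qa, C1qb and C1qc, the cascade components C4b, C3 and Cfp, the anaphylatoxin receptors C3ar1 and C5ar1, and Itgam and Itgb2, the chains of complement receptor 3. All 10 were present in the table. They were measured by RNA-seq of poly(A) RNA in 20 libraries of microglia sorted from the thoracic spinal cord of CX3CR1+/eGFP mice, which carry eGFP in place of 1 Cx3cr1 allele on a C57BL/6 background. The controls carried the same reporter, and the eGFP-high gate was used in every group. Male mice were operated on at 12 weeks of age at thoracic level 9, and a 1 cm segment around the lesion, or the same segment of non-injured animals, was taken. The 7 groups were non-injured (NI, n = 3), lateral hemisection (HS) at 72 h (n = 3), 1 week (n = 2) and 2 weeks (n = 3), and full transection (FT) at 72 h, 1 week and 2 weeks (n = 3 each). The Cx3cr1 reporter also marks blood monocytes, so the gate alone does not separate resident microglia from infiltrating macrophages. In a parallel stain of non-injured and hemisected mice, the study found eGFP-high cells negative for the surface marker LY6C at all times. It proposes that most were microglia, without excluding some infiltrating macrophages. At 72 h it could tell apart eGFP+ cells with low and with high levels of the surface marker CD45. The study describes the libraries of a group as biological replicates and took RNA from more mice than there are libraries, but how mice were divided among the libraries is not given in the sources used here, and where RNA of several mice was joined the spread between libraries is not that between mice.

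The complement system is a cascade of plasma and tissue proteins that tags cells, debris and synapses for removal. C1q binds a target and starts the classical pathway, which cleaves C4 and then C3, while properdin, the product of Cfp, stabilises the convertase of the alternative pathway and amplifies C3 cleavage. C3 fragments on a surface are read by complement receptor 3, a heterodimer of the Itgam (CD11b) and Itgb2 (CD18) chains, and the released peptides C3a and C5a act on C3ar1 and C5ar1. In the central nervous system microglia are a main source of C1q and carry complement receptor 3, which takes part in synapse removal and phagocytosis.

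The 3 C1q genes lie side by side on the minus strand within 18.675 kb of chromosome 4 (chr4:136880129-136898803, GRCm38), each with 3 exon blocks: C1qb at chr4:136880129-136886187, C1qc at chr4:136889804-136893065 and C1qa at chr4:136895917-136898803. C3 lies at chr17:57203970-57228136 and C4b at chr17:34728380-34743882, both on the minus strand. Cfp is X-linked, at chrX:20925454-20931555. C3ar1 lies at chr6:122847138-122856161 and C5ar1 at chr7:16246743-16259540. Itgam lies at chr7:128062640-128118491 and Itgb2 at chr10:77530252-77565708, both on the plus strand. Itgam shares 3450 exonic bases with Gm49368, a gene model on the same strand, so reads in that stretch cannot be given to one of them with certainty. C4b has a near-identical neighbour, C4a, and its reads may be split between them.

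The sequences below are the 250 bases before the annotated transcription start of 3 genes, 5′ to 3′ on the coding strand, from RefSeq (GRCm38.p6). They are shown because these genes had 3 different patterns among those of the list: C1qb was abundant in every group, C3 was highest at 2 weeks and Cfp was highest at 72 h. They are, in turn, chr4:136886201-136886450, chr17:57228137-57228386 and chrX:20931556-20931805, all on the minus strand. Capitals mark a match to GAGGAA, the core bound by the myeloid factor PU.1, in C1qb, and to TTGCNNAA, a C/EBP site, in C3.
C1qb: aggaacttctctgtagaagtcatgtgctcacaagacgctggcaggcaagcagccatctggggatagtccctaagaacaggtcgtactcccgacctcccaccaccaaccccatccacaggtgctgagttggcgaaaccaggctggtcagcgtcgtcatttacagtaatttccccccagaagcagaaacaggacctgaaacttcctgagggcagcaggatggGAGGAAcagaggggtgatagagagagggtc
C3: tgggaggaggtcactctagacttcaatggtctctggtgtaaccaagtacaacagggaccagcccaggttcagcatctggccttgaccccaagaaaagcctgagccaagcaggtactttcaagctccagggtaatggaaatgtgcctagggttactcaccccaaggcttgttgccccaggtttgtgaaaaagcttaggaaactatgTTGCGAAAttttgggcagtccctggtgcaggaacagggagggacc
Cfp: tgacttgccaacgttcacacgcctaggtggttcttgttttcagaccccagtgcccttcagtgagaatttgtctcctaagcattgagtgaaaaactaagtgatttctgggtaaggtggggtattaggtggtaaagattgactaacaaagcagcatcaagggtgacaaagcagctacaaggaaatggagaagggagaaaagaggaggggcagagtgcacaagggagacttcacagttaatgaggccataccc
Such windows were available for 7 of the 10 genes (all but C1qa, C4b and Itgb2), and both strands were searched. GAGGAA was found in 3 of the 7 (C1qb, C1qc and Itgam) against 23.253% of all 32851 promoters of the same length. TTGCNNAA was found in 1 of 7 (C3) against 9.564%. The NF-kB consensus was found in 1 of 7 (C1qc) against 7.251%. Neither GAAANNGAAA, the repeat of the interferon-stimulated response element (2.977% of all promoters), nor TTCNNNGAA, the GAS element (7.02%), was found in any of the 7. A match gives the letters only and does not show that a factor binds there.

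The libraries held 3872918 to 34099232 reads on genes. The deposited values (CPM) are reads divided by a scaled library size, and 1 read was worth 0.0330 to 0.292 CPM. The lowest count of any of the 10 genes in a library was 17 reads. The 10 microglial markers checked (among them P2ry12, Tmem119 and Cx3cr1) were all present and summed to 18503 to 38940 CPM per library. Summed levels of 10 monocyte and infiltrating macrophage markers were 46.6 to 55.9 CPM in NI, 92.3 to 317 CPM in the 6 libraries at 72 h and 61.3 to 107 CPM later. Markers of neutrophils (9 of 10 in the table) summed to 14.4 to 310 CPM and those of lymphocytes (7 of 8) to 4.72 to 17.6 CPM. FT 1 week replicate 1 stood apart from its group: it had the lowest microglial marker sum of all libraries, and it is treated separately below where it matters. The 3 NI columns summed to 777426 to 830481 CPM and the injured ones to 878070 to 1202186 CPM, since the deposited scaling does not set the total. Directions of small differences therefore depend on the scaling.

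Across the groups C3 and C4b rose in all 6 comparisons with NI, Cfp rose at 72 h and was lower at 2 weeks than at 72 h, C3ar1 was at 1.75- to 2.06-fold the NI mean throughout with 1 call, C5ar1 lay above NI at 72 h, just under the 2-fold limit, and overlapped NI later, and none of the C1q chains, Itgam or Itgb2 was called. Here a gene was called when its limma adjusted p, over all 16810 genes, was under 0.05 and its change was at least 2-fold on the log2(CPM + 0.5) scale. The 6 comparisons with NI share the same 3 NI libraries. The levels of every library are shown in the plot of the 10 genes by sample.

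**Figure D1:**
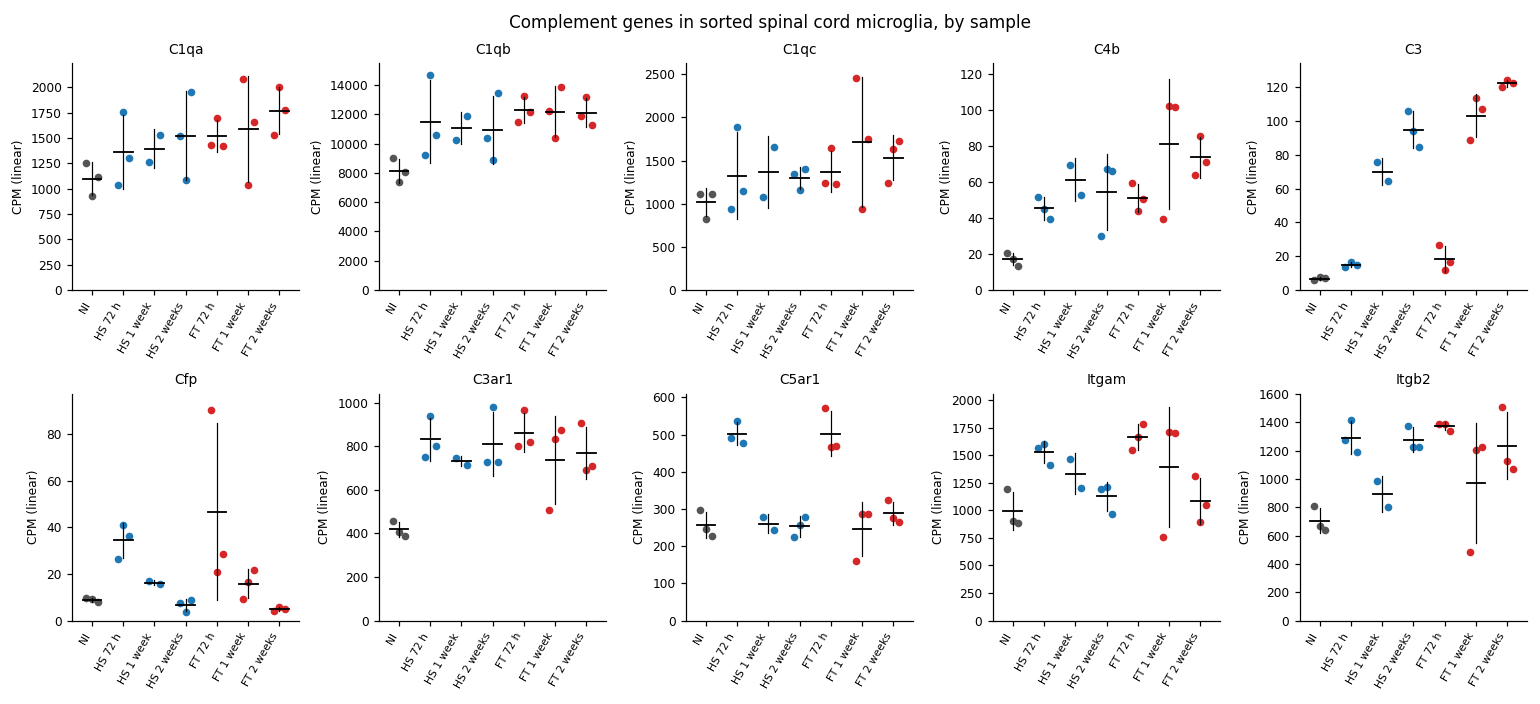
Level of each of the 10 complement genes (vertical axis, CPM, linear from 0) in the 20 libraries of the 7 groups (horizontal axis). Points are libraries, horizontal lines are group means and vertical lines span 1 SD on either side. C3 goes from 6.20 to 7.46 CPM in NI to 84.7 to 124 CPM at 2 weeks, Cfp peaks at 72 h, and C5ar1 is above NI at 72 h only.

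At 72 h after hemisection 3 of the 10 genes rose (C3, C4b and Cfp), where 9.08% of all genes rose. At 72 h after full transection 4 rose (those and C3ar1), where 8.14% of all genes rose. At 1 week 2 of 10, C3 and C4b, rose after either injury, where 1.7% (HS) and 2.86% (FT) of all genes rose. At 2 weeks C3 and C4b again rose after either injury, where 2.43% (HS) and 3.53% (FT) rose. The median log2 fold change over the 10 genes was 0.92, 0.43 and 0.42 in HS at 72 h, 1 week and 2 weeks, against -0.11, 0.022 and -0.0051 over all genes. In FT it was 0.97, 0.62 and 0.64, against -0.086, -0.026 and -0.020. All libraries of the injured group lay above all NI libraries for 8, 7 and 5 of the 10 genes in HS, against 24%, 20.2% and 14.5% of all genes, and for 10, 4 and 7 in FT, against 22.2%, 11.4% and 17.3%. These medians and counts hold for the deposited scaling. With quantile scaling the log2 fold change in HS at 72 h was -0.42 for C1qa, -0.28 for C1qb and -0.37 for C1qc. It was -0.058 for Itgam and positive for the other genes. In bulk RNA of sorted cells, a gene made by fewer cells and a gene made at a lower level per cell cannot be told apart.

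**Figure D2:**
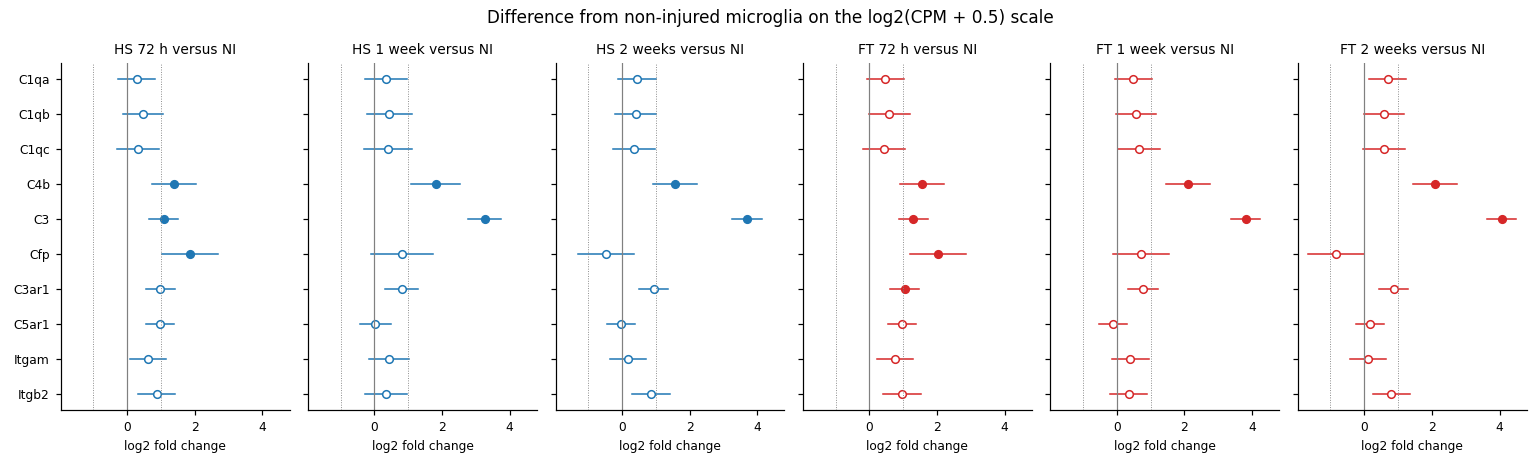
Log2 fold change against NI (horizontal axis, log2(CPM + 0.5) scale) of the 10 genes in the 6 injured groups, with 95% intervals from the limma fit. Filled points passed adjusted p under 0.05 and 2-fold, and dotted lines mark 2-fold. C3 moves from 1.08 and 1.30 at 72 h to 3.70 and 4.06 at 2 weeks, while the C1q chains stay between 0.29 and 0.69 with open points.

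The 10 genes spanned a wide range of levels. Per kilobase of exon, the mean level in NI was 7490.1 ± 754 CPM for C1qb, 1056 ± 155 for C1qa and 528 ± 85.96 for C1qc (SD, n = 3). Itgb2 followed with 231 ± 29.1 CPM per kb and Itgam with 198 ± 34.7, and the libraries of the pair overlapped. C5ar1 (99.96 ± 13.8) and C3ar1 (97.2 ± 8.15) overlapped too. The cascade components were lowest, in the order Cfp (5.20 ± 0.493), C4b (3.01 ± 0.594) and C3 (1.33 ± 0.124), with no overlap between neighbours. At 2 weeks after full transection this lower end was inverted, with C3 at 23.8 ± 0.433 CPM per kb, C4b at 12.9 ± 1.96 and Cfp at 2.82 ± 0.509, again without overlap. By mean CPM, C1qb ranked between 6 and 7 among all 16810 genes in each group, and C3 went from rank 9090 in NI to rank 1280 in FT at 2 weeks.

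The C1q chains make up the recognition molecule of the classical pathway, and none of them was called in any comparison. C1qb was measured at 9007, 7371 and 8069 CPM in the NI libraries. After hemisection it was at 9219, 14673 and 10579.9 CPM at 72 h, 10268 and 11851 CPM at 1 week and 10392, 8900.5 and 13432 CPM at 2 weeks. After full transection it was at 11465, 13214 and 12177 CPM at 72 h, 12251, 10390.5 and 13864 CPM at 1 week and 11869.9, 13189 and 11270.0 CPM at 2 weeks. In each injured group except HS at 2 weeks, every library lay above the NI libraries. The log2 fold changes of C1qb ran from 0.40 (95% interval -0.19 to 1.00) to 0.59 (-0.00074 to 1.19), with limma adjusted p between 0.137 and 0.657.

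C1qa was at 1249, 929 and 1116 CPM in NI and had group means of 1364 to 1769 CPM after injury. C1qc was at 1118, 828 and 1112 CPM in NI and had group means of 1299 to 1715 CPM. The largest mean difference was a log2 fold change of 0.69 for C1qa in FT at 2 weeks (95% interval 0.14 to 1.24, limma adjusted p = 0.135) and 0.66 for C1qc in FT at 1 week (0.027 to 1.29, adjusted p = 0.248). In FT 1 week the 3 libraries of C1qc differed widely, at 2450.1, 942 and 1752 CPM, and without replicate 2 the log2 fold change was 1.04 and passed the test (limma adjusted p = 0.0367). Without replicate 1, the library that stood apart from its group, it was 0.35 and did not pass. The 3 chains were above NI on average in all 6 comparisons with the deposited scaling, but not with every column scaled to the same total, where their log2 fold changes ran from -0.22 to 0.31, or with quantile scaling, where they ran from -0.42 to 0.18. Within a library the ratio of C1qa to C1qb was 0.126 to 0.139 in NI and 0.0994 to 0.170 after injury. Between injured and NI libraries the log2 ratio differed by -0.053 for C1qa to C1qb and by -0.050 for C1qc to C1qb (exact permutation test, two-sided, p = 0.644 and 0.686, 17 against 3 libraries).

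C3, the component on which all complement pathways meet, changed most and changed in steps of time. It was measured at 6.20, 7.46 and 6.91 CPM in NI (mean 6.86 ± 0.635, SD, n = 3). After hemisection the libraries were at 13.8, 16.8 and 14.8 CPM at 72 h, 75.6 and 64.6 CPM at 1 week and 106, 94.1 and 84.7 CPM at 2 weeks. After full transection they were at 26.7, 11.98 and 16.8 CPM at 72 h, 88.8, 113 and 107 CPM at 1 week and 119.9, 124 and 122 CPM at 2 weeks. Every injured library lay above every NI library, and within each injury every library at 1 week lay above those at 72 h and every library at 2 weeks above those at 1 week. The means were 2.20-, 10.2- and 13.9-fold the NI mean after hemisection and 2.70-, 15.03- and 17.8-fold after full transection. The log2 fold change against NI rose from 1.08 ± 0.21 (SE) at 72 h (limma adjusted p = 0.000559) to 3.70 ± 0.21 at 2 weeks (1.09e-10) in HS. In FT it went from 1.30 ± 0.21 (0.000105) to 4.06 ± 0.21 (2.50e-11).

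Tested directly, C3 rose from 72 h to 1 week by 2.18 ± 0.23 on the log2 scale in HS (limma adjusted p = 1.87e-06), where 1.95% of all genes rose. In FT the rise was 2.51 ± 0.21 (4.01e-08), where 0.827% rose. From 72 h to 2 weeks it rose by 2.61 in HS (3.07e-08), where 1.37% of all genes rose, and by 2.76 in FT (1.25e-08), where 1.13% rose. From 1 week to 2 weeks the difference was 0.43 (95% interval -0.053 to 0.92) in HS and 0.25 (-0.18 to 0.69) in FT, and neither was called. By this time few genes of the table differed: 0.0119% were called between 2 weeks and 1 week in HS and 0.0714% in FT. With every column scaled to the same total, the log2 fold changes at 72 h were 0.60 in HS and 0.85 in FT, under the 2-fold limit, and those at 1 and 2 weeks were all over 3.

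C4b, whose product is cleaved by the activated C1 complex, had already risen at 72 h and was called at every time. It was at 20.4, 17.4 and 13.6 CPM in NI. After hemisection it was at 51.8, 45.1 and 39.4 CPM at 72 h, 69.7 and 52.8 CPM at 1 week and 30.3, 67.3 and 66.2 CPM at 2 weeks. After full transection it was at 59.5, 43.8 and 50.6 CPM at 72 h, 39.5, 103 and 102 CPM at 1 week and 64.02, 85.9 and 71.2 CPM at 2 weeks. No injured library overlapped the NI libraries, although HS 2 weeks replicate 1 and FT 1 week replicate 1 stayed well under their groups. The log2 fold changes were 1.39 ± 0.31, 1.81 ± 0.35 and 1.57 ± 0.31 (SE) in HS and 1.56 ± 0.31, 2.11 ± 0.31 and 2.08 ± 0.31 in FT, with limma adjusted p of at most 0.00385. No difference between times was called, the largest being 0.54 from 72 h to 1 week in FT (95% interval -0.11 to 1.19). Without HS 1 week replicate 1, which leaves 1 library in that group, C4b in HS at 1 week had a log2 fold change of 1.62 and an adjusted p of 0.101. With columns scaled to the same total, the change in HS at 72 h was 0.89, under the limit. C4a, the neighbouring copy, was listed at 0 to 0.894 CPM in all libraries.

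Cfp, which encodes properdin, had a transient pattern. It was at 9.65, 9.39 and 8.06 CPM in NI. At 72 h it was at 26.3, 40.9 and 36.5 CPM after hemisection and 90.2, 21.03 and 28.8 CPM after full transection, and all 6 libraries lay above NI. At 1 week it was at 17.2 and 15.5 CPM in HS and 9.34, 16.6 and 21.5 CPM in FT, and at 2 weeks at 7.64, 3.63 and 8.94 CPM in HS and 3.93, 5.66 and 5.12 CPM in FT. The 3 FT libraries at 2 weeks were all below the NI libraries. Cfp rose at 72 h by 1.86 ± 0.40 on the log2 scale in HS (limma adjusted p = 0.00142) and by 2.02 ± 0.40 in FT (0.000765). At 2 weeks its log2 fold change against NI was -0.48 in HS (95% interval -1.31 to 0.35, limma adjusted p = 0.632) and -0.83 in FT (-1.66 to -0.0029, 0.26). With every column scaled to the same total the value in FT at 2 weeks was -1.20 and passed the test (limma adjusted p = 0.0411), while under the median-of-ratios and quantile scalings it was -0.84 and -0.82 and did not. From 72 h to 1 week the difference in Cfp was -1.04 in HS (limma adjusted p = 0.139) and -1.31 in FT (0.0565). The FT difference was called by the edgeR quasi-likelihood test (-1.57, adjusted p = 0.0187), the edgeR likelihood ratio test and DESeq2 on the recovered reads, and by limma without FT 72 h replicate 2 (-1.73, adjusted p = 0.0147) or FT 1 week replicate 3 (-1.57, 0.0361). Between 72 h and 2 weeks the log2 level of Cfp fell by 2.34 in HS (adjusted p = 0.00049), where 3.37% of all genes fell, and by 2.85 in FT (5.31e-05), where 2.68% fell.

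FT 72 h replicate 1 had more than 3 times the Cfp level of the other FT libraries at that time. Without it the rise in FT at 72 h was 1.40 (limma adjusted p = 0.00573) and the fall from 72 h to 2 weeks was -2.23 (0.000254). Markers of monocytes and infiltrating macrophages were higher at 72 h than in NI, as Cfp was, while those of neutrophils were not. The 9 neutrophil markers summed to 116, 64.5 and 48.7 CPM in NI. At 72 h they summed to 27.5, 24.7 and 23.6 CPM in HS and 61.9, 21.3 and 29.7 CPM in FT. The summed level of the 10 monocyte and infiltrating macrophage markers was 51.4, 46.6 and 55.9 CPM in NI, 92.3, 175 and 165 CPM in HS at 72 h and 317, 164 and 136 CPM in FT at 72 h, again highest in FT replicate 1. Of these 10 markers 3 rose in HS and 6 in FT at 72 h, where 9.08% and 8.14% of all genes rose. In each later group 1 of them rose, where 1.7% to 3.53% of all genes rose. The summed level of the 8 border macrophage markers was 220.3, 206 and 206 CPM in NI, 238, 226 and 194 CPM in HS and 365, 245 and 222 CPM in FT at 72 h, so that it overlapped NI in HS and not in FT. At 2 weeks, where Cfp was lower than at 72 h, it was 67.1, 77.4 and 76.3 CPM in HS and 52.9, 85.9 and 81.4 CPM in FT, below every NI library. At that time the monocyte and infiltrating macrophage markers summed to 80.5, 99.6 and 63.0 CPM in HS. In FT they summed to 76.1, 102 and 99.9 CPM. Each of these sums lay above every NI library, while Cfp overlapped NI in HS and lay below it in FT. The part of these lists of markers in the Cfp result was not tested.

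The receptors of the anaphylatoxins differed in time course. C3ar1, the C3a receptor, was at 458, 407 and 390.3 CPM in NI. After hemisection it was at 753, 940.2 and 801 CPM at 72 h, 747 and 716 CPM at 1 week and 727, 981 and 727 CPM at 2 weeks. After full transection it was at 803, 966 and 818 CPM at 72 h, 506, 832 and 875 CPM at 1 week and 906, 692 and 709.7 CPM at 2 weeks. All injured libraries lay above all NI libraries. The log2 fold changes of C3ar1 were 0.99, 0.81 and 0.94 in HS (limma adjusted p = 0.00129, 0.0719 and 0.00791) and 1.04, 0.78 and 0.87 in FT (0.000899, 0.0238 and 0.00913). Only FT at 72 h passed the 2-fold limit, and it lay so close to it that leaving out NI replicate 3 (0.99) or FT 72 h replicate 2 (0.96) put it below. C3ar1 crossed the limit the other way in HS at 72 h without NI replicate 1, HS 72 h replicate 1 or HS 72 h replicate 3 (1.05, 1.06 and 1.01) and with median-of-ratios scaling (1.01). It did so too in HS at 2 weeks without NI replicate 1, HS 2 weeks replicate 1 or HS 2 weeks replicate 3 (1.01, 1.02 and 1.02). Without FT 1 week replicate 1, at 506 CPM the lowest injured library, C3ar1 was also called in FT at 1 week, at 1.031 on the log2 scale (limma adjusted p = 0.00062). Under the same-total and quantile scalings, the 6 log2 fold changes stayed above 0, at 0.43 to 0.62 and 0.38 to 0.61.

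C5ar1, the C5a receptor, was at 297, 246 and 228 CPM in NI. At 72 h it was at 492, 537 and 477 CPM in HS and 572, 465 and 469.5 CPM in FT, above every NI library. At 1 week it was at 278 and 243 CPM in HS and 161, 287 and 288 CPM in FT, and at 2 weeks at 224, 257 and 279.7 CPM in HS and 323, 275 and 265 CPM in FT, overlapping NI. The log2 fold change at 72 h was 0.97 ± 0.20 in HS (limma adjusted p = 0.001) and 0.97 ± 0.20 in FT (0.00116), just under the 2-fold limit in both. It passed the limit in HS without NI replicate 1 (1.08) or HS 72 h replicate 3 (1.01), and in FT without NI replicate 1 (1.08), FT 72 h replicate 2 (1.02) or FT 72 h replicate 3 (1.01). With every column scaled to the same total it was smaller, at 0.46 in HS and 0.50 in FT. With quantile scaling it was 0.46 and 0.52. At the later times the log2 fold change with the deposited scaling ran from -0.11 (95% interval -0.52 to 0.31) to 0.17 (-0.25 to 0.58). From 72 h to 1 week C5ar1 fell in FT by 1.07 on the log2 scale (limma adjusted p = 0.00163), where 2.62% of all genes fell, and the difference in HS was -0.94 (0.00961), under the 2-fold limit. Without FT 1 week replicate 1, whose level of 161 CPM was the lowest of all, the FT difference was -0.80 (0.00412), and without FT 72 h replicate 1 it was -0.98 (0.0154), both under the limit. This FT difference was also under the limit with every column scaled to the same total (-0.95) and with quantile scaling (-0.90). With only the samples of the 2 groups it was -1.07, with a limma adjusted p of 0.0901. From 72 h to 2 weeks the difference in C5ar1 was -0.99 in HS (limma adjusted p = 0.00268) and -0.80 in FT (0.018), under the limit in both. In HS it ran from -1.06 to -0.90 with a library left out and was past the limit in 4 of 6 such fits, without HS 72 h replicate 1 or 3 or HS 2 weeks replicate 2 or 3.

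The ratio of C3ar1 to C5ar1 within a library does not depend on how columns are scaled. Its log2 value was 0.63, 0.73 and 0.77 in NI, 0.62, 0.81 and 0.75 in HS at 72 h and 0.49, 1.05 and 0.80 in FT at 72 h. At 1 week it was 1.43 and 1.56 in HS and 1.65, 1.54 and 1.60 in FT, and at 2 weeks 1.70, 1.93 and 1.38 in HS and 1.49, 1.33 and 1.42 in FT. The 6 libraries at 72 h (mean 0.75 ± 0.19, SD) did not overlap the 11 later ones (1.55 ± 0.17), a difference of -0.79 (exact permutation test, two-sided, p = 0.000162, the smallest value that 6 against 11 libraries allow; adjusted p = 0.00129 over the 8 ratio tests). Over all injured libraries the ratio was 0.56 higher than in NI, with p = 0.0526 (exact permutation test, 17 against 3; adjusted p = 0.211). The 72 h libraries lay around the NI values and the later ones above them, in HS as in FT.

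**Figure D3:**
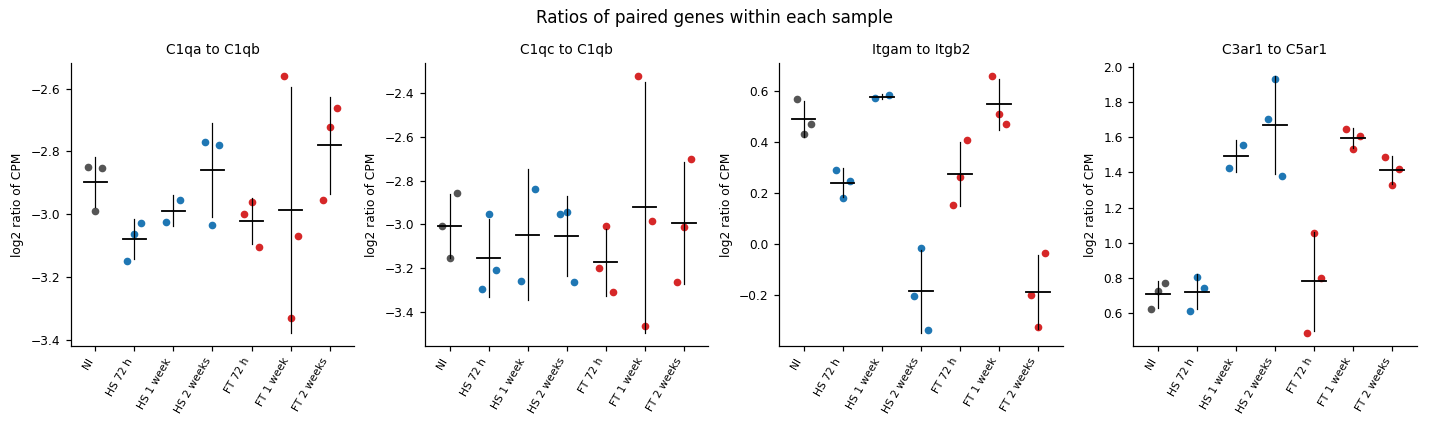
Log2 ratio of 2 genes of a pair within each library (vertical axis, no unit) in the 7 groups, with group means and 1 SD. The C3ar1 to C5ar1 ratio is 0.49 to 1.05 at 72 h and 1.33 to 1.93 later, and the Itgam to Itgb2 ratio is below 0 in all 6 libraries at 2 weeks only.

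The chains of complement receptor 3 were abundant in every group and were not called. Itgb2, the CD18 chain that also pairs with other integrin alpha chains, was at 807, 669 and 640.5 CPM in NI. It was at 1275, 1415 and 1189 CPM in HS and 1389.6, 1388 and 1343 CPM in FT at 72 h, at 984 and 802 CPM and 482, 1202 and 1227 CPM at 1 week, and at 1378, 1225 and 1227 CPM and 1506, 1126 and 1073 CPM at 2 weeks. At 72 h and 2 weeks all libraries lay above NI, the log2 difference at 72 h being 0.88 in HS (limma adjusted p = 0.0175) and 0.97 in FT (0.0104). Without NI replicate 1 the FT difference was 1.07 and passed the test (0.0154). At 2 weeks it was 0.86 in HS (0.0677) and 0.80 in FT (0.0706). At 1 week the log2 fold changes were 0.34 and 0.35.

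Itgam, the CD11b chain used to identify microglia and macrophages, was at 1197, 903 and 887 CPM in NI. It was at 1561, 1602 and 1412 CPM in HS and 1545, 1665 and 1780.5 CPM in FT at 72 h, at 1462 and 1203 CPM and 761, 1713 and 1701 CPM at 1 week, and at 1196, 1211 and 969.7 CPM and 1310.4, 897 and 1046 CPM at 2 weeks. The 72 h libraries lay above NI, and those at 2 weeks overlapped NI. The log2 fold change of Itgam was 0.63 in HS (limma adjusted p = 0.0745) and 0.75 in FT (0.0371) at 72 h, and 0.18 and 0.12 at 2 weeks. FT 1 week replicate 1 had the lowest Itgam and Itgb2 levels of all libraries, and without it the log2 fold changes in FT at 1 week were 0.79 for each (limma adjusted p = 0.0101 and 0.00577), under the 2-fold limit. With the quantile scaling the differences from NI ran from -0.42 to 0.086 for Itgam and -0.13 to 0.44 for Itgb2, and with the same total from -0.28 to 0.28 and -0.00051 to 0.54, so the direction for this pair was not fixed across scalings.

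The log2 ratio of Itgam to Itgb2 was 0.57, 0.43 and 0.47 in NI, 0.29, 0.18 and 0.25 in HS and 0.15, 0.26 and 0.41 in FT at 72 h, 0.57 and 0.59 and 0.66, 0.51 and 0.47 at 1 week, and -0.21, -0.015 and -0.34 and -0.20, -0.33 and -0.036 at 2 weeks. All 6 libraries at 2 weeks were below the others. The injured libraries together differed from NI by -0.30 (exact permutation test, two-sided, p = 0.130) and the 72 h libraries from the later ones by 0.10 (p = 0.545). The set of later libraries joins 1 week, with the highest ratios, and 2 weeks, with the lowest. This contrast of 2 weeks with the rest was noticed in the values and was not tested.

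Hemisection and full transection were compared at each time. With limma 0 of the 10 genes were called at 72 h, 1 week or 2 weeks, where 0% of all genes were called at each time. At an unadjusted p under 0.05, 0, 1 and 0 of the 10 passed, and 505, 724 and 438 of all genes. The edgeR quasi-likelihood test, the edgeR likelihood ratio test and DESeq2 on the recovered reads also called 0 of the 10, and between 0 and 8 of all genes. The 1 gene was C3 at 1 week, higher in FT than in HS by 0.55 on the log2 scale (95% interval 0.063 to 1.04, unadjusted p = 0.0287, limma adjusted p = 0.999), with no overlap between the 3 FT and 2 HS libraries. At 2 weeks the difference in C3 was 0.37 (-0.067 to 0.80), again without overlap. All FT libraries lay above all HS libraries for 0, 1 and 1 of the 10 genes at 72 h, 1 week and 2 weeks, against 4.1%, 6.79% and 4.45% of all genes. For C4b the differences were 0.17, 0.29 and 0.51 at the 3 times, the last with an interval of -0.14 to 1.16, which holds both 0 and a 2-fold difference between injuries. For C5ar1 at 72 h the difference was -0.0043 (-0.42 to 0.41).

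Of 43 other complement genes, 33 were in the table. Against NI, 3, 2 and 2 of them rose in HS at 72 h, 1 week and 2 weeks, and 4, 3 and 3 in FT, while 2 fell in FT at 72 h and 1 in FT at 2 weeks. Of all genes 9.08%, 1.7% and 2.43% rose in HS at these times, and 8.14%, 2.86% and 3.53% in FT. In HS at 72 h the 3 that rose were a like share of the 33. In FT 4.09% of all genes fell at 72 h and 1.36% at 2 weeks. The median log2 fold change over the 33 lay between -0.16 and 0.15 in the 6 comparisons. The changes were in few genes. Cfb, factor B, which is the catalytic part of the alternative pathway convertase and binds C3b, was the only one of the 33 called against NI in all 6 comparisons. It was at 2.44, 1.54 and 1.53 CPM in NI. In HS it was at 5.38, 7.54 and 7.79 CPM at 72 h, 18.8 and 18.8 CPM at 1 week and 15.7, 13.7 and 16.9 CPM at 2 weeks. In FT it was at 15.6, 18.99 and 19.1 CPM at 72 h, 4.82, 27.4 and 28.9 CPM at 1 week and 24.7, 21.1 and 14.7 CPM at 2 weeks. Its log2 fold changes were 1.67, 3.06 and 2.79 in HS and 2.99, 2.82 and 3.13 in FT, with limma adjusted p of at most 0.00473. At 72 h the FT libraries were all above the HS libraries, by 1.32 on the log2 scale, with a limma adjusted p of 1.000.

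Itgax, the CD11c chain of complement receptor 4, which also pairs with Itgb2, followed the late pattern of C3. It was at 13.9, 16.1 and 15.8 CPM in NI, 10.4, 28.7 and 27.1 CPM in HS and 35.3, 21.9 and 17.99 CPM in FT at 72 h. It then rose to 71.9 and 71.6 CPM and 47.3, 52.1 and 52.9 CPM at 1 week and 201, 145 and 153 CPM and 151, 159 and 151 CPM at 2 weeks. The log2 fold changes against NI were 2.20 and 1.70 at 1 week and 3.39 and 3.29 at 2 weeks (limma adjusted p of at most 0.000361). From 1 week to 2 weeks Itgax rose again in FT, by 1.59 (0.0295), while the difference in HS was 1.19 (0.557).

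C1ra, a serine protease of the C1 complex, was at 1.85, 0.772 and 0.576 CPM in NI, 3.70, 4.81 and 4.51 CPM in HS and 6.49, 6.13 and 6.23 CPM in FT at 72 h. It rose at 72 h by 1.71 in HS (limma adjusted p = 6.62e-05) and 2.20 in FT (3.44e-06), and was called in FT at 1 week (1.04) and 2 weeks (1.06). Its NI values rest on 31, 6 and 6 reads, and the later FT calls lay close to the 2-fold limit. Fcna, a ficolin of the lectin pathway, was at 1.43, 2.57 and 3.26 CPM in NI, and at 72 h it rose by 1.66 in HS (0.00152) and 1.40 in FT (0.00626). Masp1, a lectin pathway protease, rose in FT at 72 h (1.13, adjusted p = 0.00352). Masp2 (-1.25, adjusted p = 0.0101) and Cd46 (-1.34, 0.0053), a membrane regulator, fell in FT at 72 h, from levels of 0.715 to 2.01 and 1.19 to 1.63 CPM in NI that rest on few reads. Clu, clusterin, fell in FT at 2 weeks (-1.81, 0.0225), with libraries at 4.59, 27.1 and 11.1 CPM that overlapped 63.3, 45.04 and 23.8 CPM in NI. Clu is also made by astrocytes, whose 10 markers summed to 781, 578 and 434 CPM in NI and 189, 254 and 194 CPM in FT at 2 weeks. Their part in this result was not tested.

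**Figure D4:**
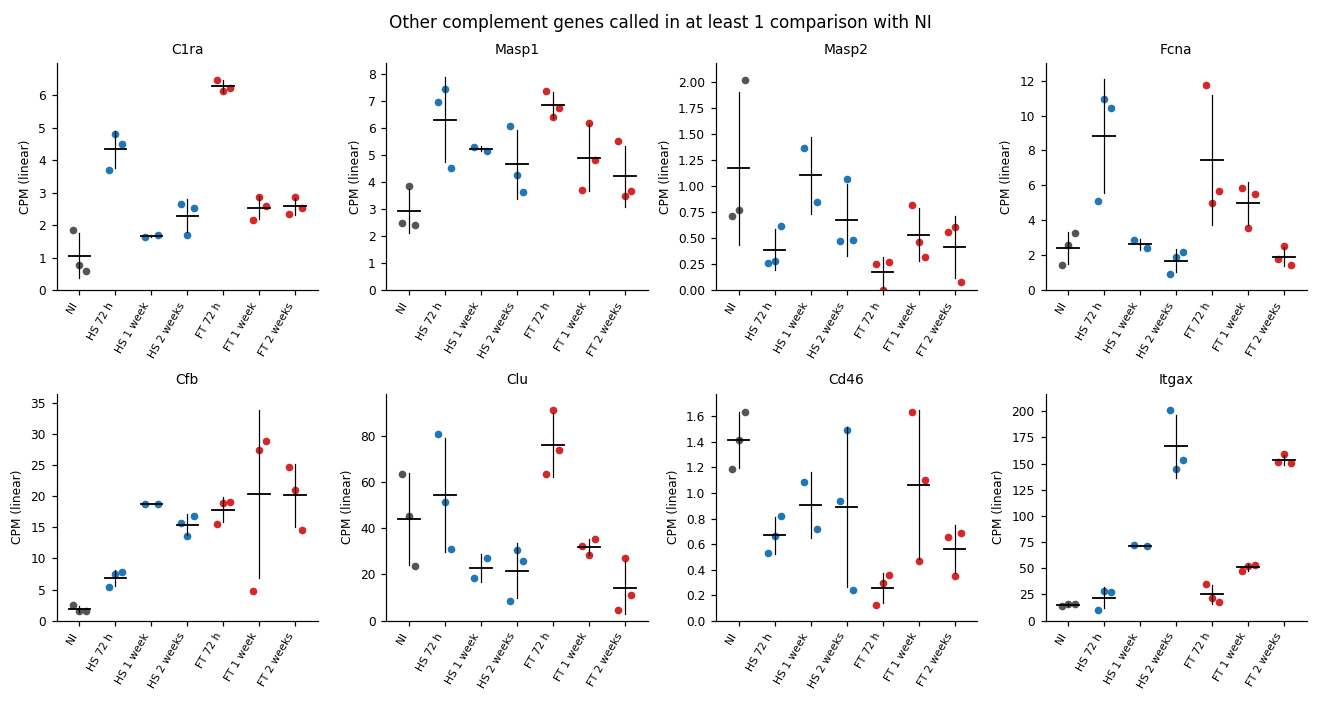
Level (vertical axis, CPM, linear from 0) of the 8 other complement genes called in at least 1 comparison with NI, in the 20 libraries of the 7 groups, with group means and 1 SD. Cfb is above NI in every injured library, Itgax reaches 145 to 201 CPM at 2 weeks after hemisection, and Masp2 and Cd46 are at or under 2.01 CPM.

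Among the genes of the table with a mean of at least 1 CPM (14051), those most alike each complement gene were ranked by Pearson's r of log2(CPM + 0.5) over the 20 libraries, given as a description, since the libraries share groups and scaling. For C3 they were Rxrg (0.979), Cxcl13 (0.971) and Nlrc5 (0.968). Among those of C4b were Ifit1 (0.945) and Oasl1 (0.931), both genes of the interferon response. For Cfp they were Ccr1 (0.929), Nxpe5 (0.909) and F13a1 (0.884). F13a1 is among the border macrophage markers listed here, whose sum overlapped NI in HS at 72 h, where Cfp rose. Ccr1 encodes a chemokine receptor of myeloid cells. For C3ar1 they were Atp6v1a (0.941), Cd72 (0.941) and Soat1 (0.939) and for C5ar1 Lsp1 (0.952), Sae1 (0.945) and Fen1 (0.945). For Itgam they were Cyfip1 (0.953), Stam2 (0.951) and Exoc4 (0.946) and for Itgb2 Hsd17b12 (0.949), Fuca2 (0.945) and Manba (0.944). The C1q chains had weaker neighbours, led by Ttc21b for C1qa (0.844), Bst2 for C1qb (0.870) and Rnasek for C1qc (0.821). Among the 10 genes themselves, the highest r were 0.896 between C1qa and C1qc, 0.852 between C1qa and C1qb and 0.848 between C3ar1 and Itgb2, and that between C3 and Cfp was -0.408.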

How the data were processed

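RNA-seq of poly(A) RNA (RNA integrity number over 7) was made with a low-input kit for 20 libraries in 7 groups, which were assigned from the sample labels. The authors trimmed adapters, aligned reads to mm10 (GRCm38) with TopHat 2.0.9, counted them with HTSeq 0.5.4p3, kept genes with 10 counts in at least 2 replicates and scaled with edgeR 3.3.6. Strandedness and batches are not given in the sources used here. The deposited values are a normalised signal, reads divided by a scaled library size (CPM). All 336200 values were whole multiples of 1 read (100%, tolerance 0.001 of a step), so read numbers were recovered. Precision follows from 3872918 to 34099232 reads per library, and replicates of a group differed by 3.27 to 9.93 times their sampling noise.

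The test was limma 3.58.1 (R 4.3.3) with an intensity trend on log2(CPM + 0.5), 1 mean per group over all 20 libraries, with Benjamini-Hochberg adjustment over 16810 genes. A gene was called at adjusted p under 0.05 and 2-fold. Fold changes on this scale understate low genes. Ratios within a library were compared by exact permutation tests (scipy 1.17.1), adjusted over 8 tests. The study calls the libraries biological replicates. How mice were divided among them is not given in the sources used here, so p-values measure the spread between these libraries. Alternatives were 0.1 or 1 CPM added, a filter of 1 CPM in 2 samples, the samples of the 2 groups alone, 3 other scalings, no fold limit, a replicate block, edgeR 4.0.16 and DESeq2 1.42.0 on the recovered reads, and leaving out each library. The fit was tested on simulated data. The same replicate number was shared by groups. Of 41 same-numbered pairs 14 had deviations correlated over 0.1 (range -0.39 to 0.38). Among the comparisons with 3 such pairs, every pair did so only for FT against HS at 72 h (0.143, 0.267 and 0.179). The labels do not say whether same-numbered samples belong together.

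The 10 genes, the gene lists and the tests were chosen with earlier results of these data known. The 10 genes are always named, the other complement genes where called against NI, with Itgax, Cfb and Clu among them, and the 3 genes most alike each member, of which 1 is not reported here. Marker lists are given as counts and sums. Positions are from GENCODE vM21.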

Additional observations from a re-analysis of the deposited data

Results flagged for a closer look

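The difference from NI of 3 genes changed between times by the direct test between the injured groups. C3 was higher at 1 week than at 72 h by 2.18 on the log2 scale after hemisection and by 2.51 after full transection, and higher at 2 weeks than at 72 h by 2.61 and 2.76. Cfp went the other way, with a log2 difference between 2 weeks and 72 h of -2.34 after hemisection and -2.85 after full transection. C5ar1 differed between 1 week and 72 h by -1.07 after full transection. The values of C3 and Cfp passed the test after both injuries, and that of C5ar1 between 1 week and 72 h after full transection. This C5ar1 value did not pass without FT 72 h replicate 1 or FT 1 week replicate 1. Nor did it pass with the same total (-0.95), quantile scaling (-0.90) or only the samples of the 2 groups (limma adjusted p = 0.0901). After hemisection C5ar1 was just under the 2-fold limit at 1 week and 2 weeks against 72 h (-0.94 and -0.99). The difference between the injuries was not tested.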

How the results depend on the processing

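The count of complement genes called depended mainly on the 2-fold limit and on scaling. With every column scaled to the same total, 1 gene (Cfp) was called in HS and 2 (C4b and Cfp) in FT at 72 h against NI, and 1 (C3) in FT between 1 week and 72 h. That last count was also 1 (C3, without C5ar1) with quantile scaling and with only the samples of the 2 groups. With no fold limit the counts at 72 h were 6 in HS and 7 in FT, and the count between 1 week and 72 h in HS was 2, as it was with only the samples of the 2 groups. The edgeR likelihood ratio test and DESeq2 each called 1 gene (Cfp) between 2 weeks and 1 week in FT, where limma called 0. Leaving out a library gave 3 to 5 genes in HS at 72 h (5 without NI replicate 1 or HS 72 h replicate 3), 1 to 2 in HS at 1 week (1 without HS 1 week replicate 1) and 1 to 3 in FT between 1 week and 72 h (1 without FT 72 h replicate 1 or FT 1 week replicate 1, 3 without FT 72 h replicate 2 or FT 1 week replicate 3). It gave 3 to 6 in FT at 72 h (3 without NI replicate 3, 6 without NI replicate 1), and 2 to 3 in FT at 1 week and HS at 2 weeks against NI and in HS between 2 weeks and 72 h. Itgam in HS at 72 h went from 0.63 to -0.058 with quantile scaling. The difference from NI in the log2 ratio of C1qc to C1qb was -0.12 to 0.025 with a library left out, above 0 only without NI replicate 3. A gene whose 95% interval held 0 was given no direction. The replicate block changed no call: in FT against HS at 72 h it called 0 of the 10 genes, and it called 3 in HS and 4 in FT at 72 h against NI. Scaling to the same total moved the median over all genes, on the log2 scale, to between -0.52 and 0.33. The causes were not tested. Calls of low genes such as Cfp, with 17 reads in the poorest library, are limited by depth, and HS at 1 week by its 2 libraries.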
